A study of Homo sapiens with 6 samples.

Results

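CYP24A1 and 8 further genes of the vitamin D axis were examined on 6 arrays of NCI-H292 cells, an established human line grown from a mucoepidermoid tumour of the lung. The CT45A1 overexpression group (3 arrays) carried a stable CT45A1-Venus fusion, and the CT45A1 negative group (3 arrays) a stable vector with Venus, a fluorescent protein, alone. Both groups had thus been transfected and carried Venus. CT45A1 belongs to the cancer/testis antigens, proteins normally made in testis and found again in tumours. Whether the stable cells were 1 clone or a mixture, and whether the replicates were separate cultures, is not given in the sources used here, so the spread between arrays may be technical. The members were CYP24A1, VDR, RXRA, RXRB, CYP27B1, CYP2R1, STEAP4, TRPV6 and CAMP, 9 of the 19775 genes that had a probe set naming 1 gene. They had 19 of the 41091 such probe sets, and all 19 are described here. CYP24A1 was picked because it was among the largest increases in this comparison, and the other genes were placed around it by their roles. Member values are therefore a description of these 6 arrays, with no test.

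Vitamin D is made in skin or eaten, and becomes a hormone after hydroxylation at carbon 25, by CYP2R1 among other enzymes, and then at carbon 1 by CYP27B1. The hormone binds the vitamin D receptor VDR, which pairs with a retinoid X receptor such as RXRA or RXRB and acts on genes that carry vitamin D response elements. CYP24A1, a mitochondrial cytochrome P450, hydroxylates and inactivates both the hormone and its precursor, and it is itself one of the most strongly induced target genes in many tissues, which closes a feedback loop. Airway epithelium expresses VDR and can make the hormone, and some lung tumours carry high CYP24A1 transcript levels.

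Values are MAS5 signals, a linear intensity, and differences are log2 overexpression minus negative. The labels held at the targeted family: the brighter CT45 probe set gave 518, 700.1 and 445 on overexpression arrays, against 23.1, 15.8 and 1.95 on negative ones, and each CT45 probe set is annotated to 9 CT45 genes. All 6 epithelial markers examined (EPCAM, CDH1, KRT7, KRT8, KRT18 and KRT19) lay above the array median on every array, with signals of 3725 to 29168. Of 9 markers of other cell types, the endothelial CDH5 and PECAM1 were bright enough to test and the others were not, and the signals of all 9 ran from 3.74 to 240.1. CDH5 was higher on all overexpression arrays than on all negative ones, by 0.79 on the log2 scale, without passing in limma (adjusted p = 0.115). KRT18, an epithelial keratin, fell by 0.25 (limma adjusted p = 0.0367), and CDH1, E-cadherin, was lower on all overexpression arrays without passing (-0.11, adjusted p = 0.331). Of the 6 epithelial markers 3 lay above 0 and 3 below, with KRT19 at 0.25, KRT7 at 0.11, KRT8 at 0.07 and EPCAM at -0.11. Over all probe sets tested, 15.2% had all overexpression arrays higher and 11.4% had them all lower. The part of these marker transcripts in the results was not tested. The array medians were 79.2 to 83.3 in the overexpression group and 72.6 to 75.6 in the negative group, a shift of 0.14 on the log2 scale. These medians include dim probe sets, and the median difference of the probe sets kept for testing was only 0.03. Values given below relative to the shift subtract the larger figure, so they can overcorrect bright probe sets. The ratio of 3' to 5' actin probe sets, which goes up as RNA breaks down, was 1.42, 1.49 and 1.55 on overexpression arrays and 1.70, 1.64 and 1.91 on negative arrays, so it also separated the groups. Values given below with this ratio in the fit thus cannot tell ratio and group apart. The part of the array medians and of this ratio in the results, beyond the values given below, was not tested.

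CYP24A1 transcript signal was several times higher with CT45A1. Its only probe set, 206504_at, read 742, 847 and 558 on the overexpression arrays, against 165, 159 and 158 on the negative arrays. Every overexpression array lay more than 3 times above every negative one, and the negative arrays differed among themselves by only a few signal units. The mean log2 signal was 9.46 ± 0.31 with CT45A1 and 7.32 ± 0.03 without it (SD, n = 3 each), a difference of 2.14 (SE 0.18, from the spread of both groups) or 4.40-fold. Among 11895 genes it was the 4th highest difference, which is how it came to be chosen. With the actin ratio in the fit it was 1.94, and relative to the shift of the array medians it was 1.99. A higher level in every cell and a larger share of cells with a high level cannot be told apart in RNA of a whole culture. The CYP24A1 signal was above the array median on all 6 arrays. On negative arrays the endothelial markers PECAM1 (163, 149 and 121) and CDH5 (147, 87.0 and 125) gave signals not far below it. Without detection calls it is not known whether the negative CYP24A1 signal exceeds background, which would be the base of the 4.40-fold.

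VDR, the receptor, lay on the other side of 0 at the brighter of its 4 probe sets. The brightest, 204254_s_at, read 1507, 1883 and 1399 on overexpression arrays, against 2405, 2612 and 2013 on negative arrays. The groups did not overlap, and the log2 difference was -0.56 (SE 0.17, n = 3 each), or 1.47-fold lower, and -0.90 with the actin ratio in the fit. The next, 204255_s_at, read 1654, 1661 and 1525 with CT45A1, against 1912, 1902 and 1761 without it. These arrays did not overlap either, but the log2 difference was smaller, at -0.20 (SE 0.06). At 204253_s_at the signals were 352, 298 and 283 on overexpression arrays and 326, 334 and 288 on negative arrays, with a log2 difference of -0.02 (SE 0.12) and full overlap. The dimmest VDR probe set, 213692_s_at, read 86.5, 86.5 and 86.1 with CT45A1 and 113, 168 and 67.3 without it, near the array median, with a log2 difference of -0.33 (SE 0.38). The 4 VDR probe sets thus ran the same way in sign but differed in size, and 2 of them had overlapping groups; 26.6% of all probe sets tested had groups that did not overlap. The sign at 204253_s_at turned when overexpression replicate 2 or 3 or negative replicate 2 was left out (0.003, 0.04 and 0.02), while the other 3 stayed below 0 in all 15 alternative settings they entered, 213692_s_at at only -0.01 without negative replicate 2. Settings that change only the filter or the variance model cannot alter these differences. With the actin ratio in the fit the 3 dimmer probe sets differed by more, 204255_s_at by -0.36, 204253_s_at by -0.34 and 213692_s_at by -1.34.

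**Figure D1:**
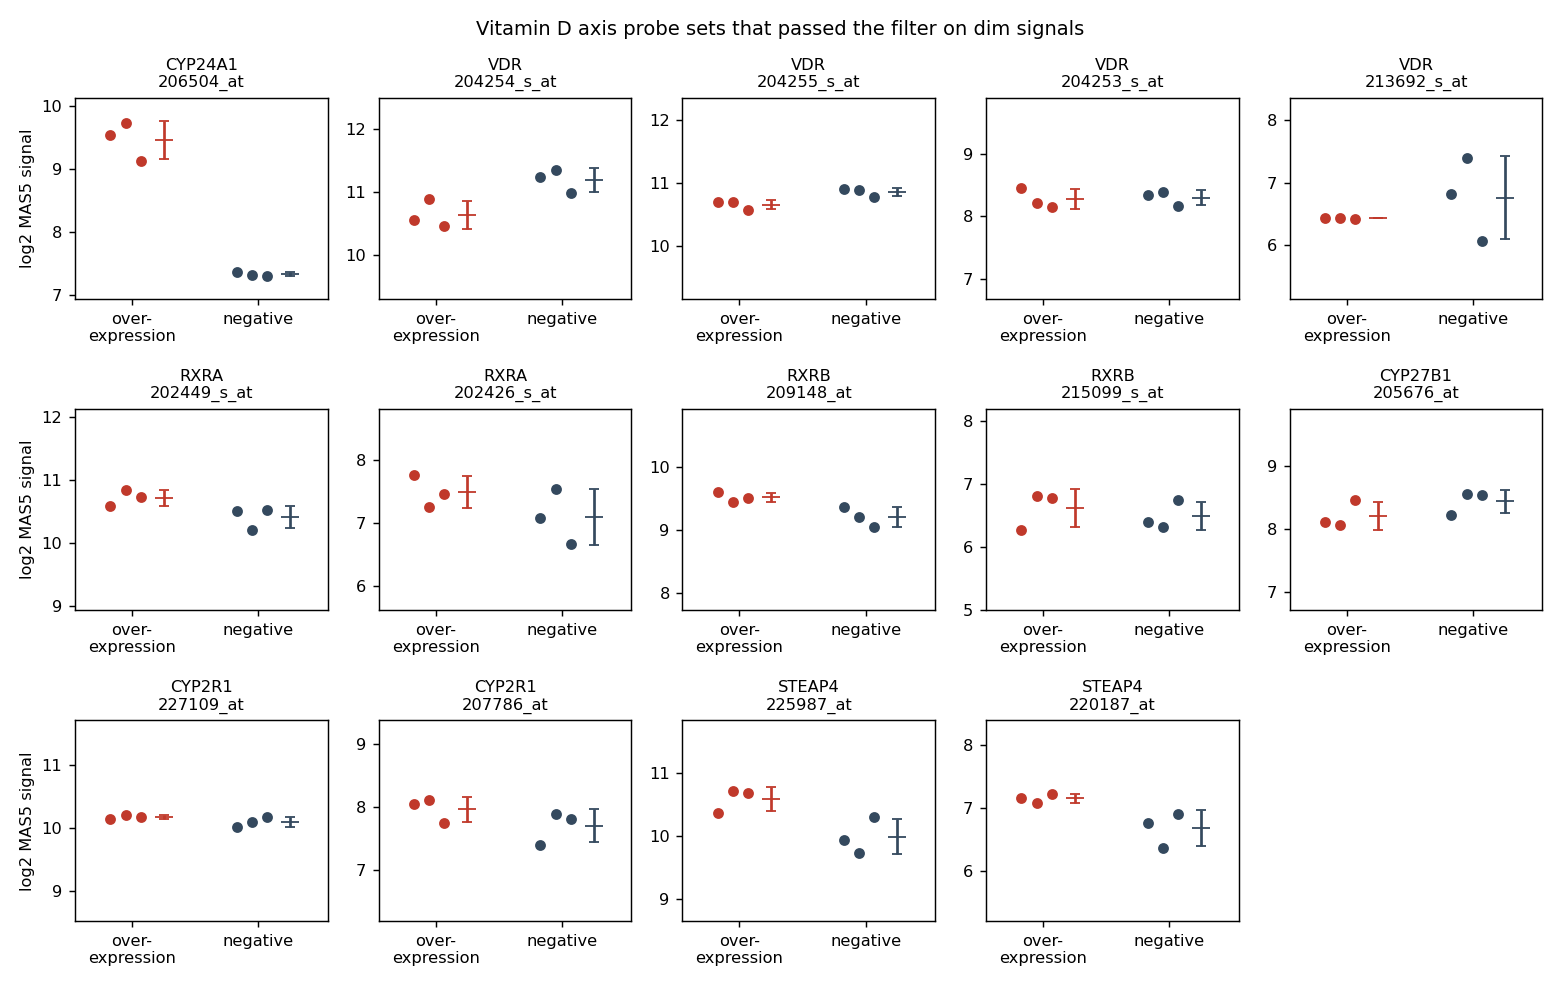
Log2 MAS5 signal on each array for the 14 member probe sets that passed the filter on dim signals, with CT45A1 overexpression left of CT45A1 negative, and the mean with its SD (n = 3) beside the points. Every panel spans the same log2 range, so distances can be compared between panels; CYP24A1 shows the widest gap, STEAP4 and the brightest VDR probe set smaller gaps in opposite directions.

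RXRA and RXRB, the partners with which VDR binds DNA, were slightly higher at their brightest probe sets. RXRA 202449_s_at read 1537, 1838 and 1687 on overexpression arrays, against 1448, 1181 and 1471 on negative arrays. The lowest overexpression array lay just above the highest negative one, and the log2 difference was 0.31 (SE 0.13). The dimmer RXRA probe set, 202426_s_at, read 218, 153 and 177 with CT45A1 and 136, 186 and 101 without it, with overlapping arrays and a log2 difference of 0.40 (SE 0.29) that became -0.39 with the actin ratio as a covariate. RXRB 209148_at read 773, 698 and 728 on overexpression arrays, against 658, 588 and 529 on negative arrays, without overlap and with a log2 difference of 0.31 (SE 0.10). Its middle probe set, 215099_s_at, had overlapping groups and a log2 difference of 0.13 (SE 0.22), which was -0.02 after quantile normalization and -0.01 relative to the array medians. The remaining RXRB probe set, 215098_at, lay under the array median on 4 of 6 arrays and was not tested, with signals of 11.2, 83.8 and 32.8 with CT45A1 and 77.6, 45.1 and 29.9 without it. Relative to the shift of the array medians the brightest probe sets of RXRA and RXRB differed by 0.16 and 0.17 on the log2 scale, and with the actin ratio in the fit by 0.57 and 0.09.

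The enzymes that activate vitamin D differed little between the groups. CYP27B1, which makes the hormone, had 1 probe set, 205676_at, with signals of 276, 268 and 354 on overexpression arrays and 300.3, 378 and 372 on negative arrays. Overexpression replicate 3 lay among the negative arrays, and the log2 difference was -0.23 (SE 0.17), or -0.0003 with the actin ratio as a covariate. CYP2R1, a 25-hydroxylase of the endoplasmic reticulum, had 3 probe sets. Its brightest, 227109_at, read 1122, 1181 and 1149 with CT45A1 and 1038, 1085 and 1157 without it. The groups overlapped, and the log2 difference of 0.08 (SE 0.05) turned to -0.07 after centring on the array median. At 207786_at the arrays also overlapped, with 264, 277 and 214 on overexpression arrays, against 169, 238 and 225 on negative ones, and a log2 difference of 0.26 (SE 0.19). The third CYP2R1 probe set, 239181_at, read 11.0, 16.7 and 7.91 with CT45A1 and 5.18, 4.16 and 3.55 without it, far under the array median on every array, so no fold is given for it. On the same 6 arrays the log2 difference of CYP24A1, the inactivating P450, was 2.14.

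**Figure D2:**
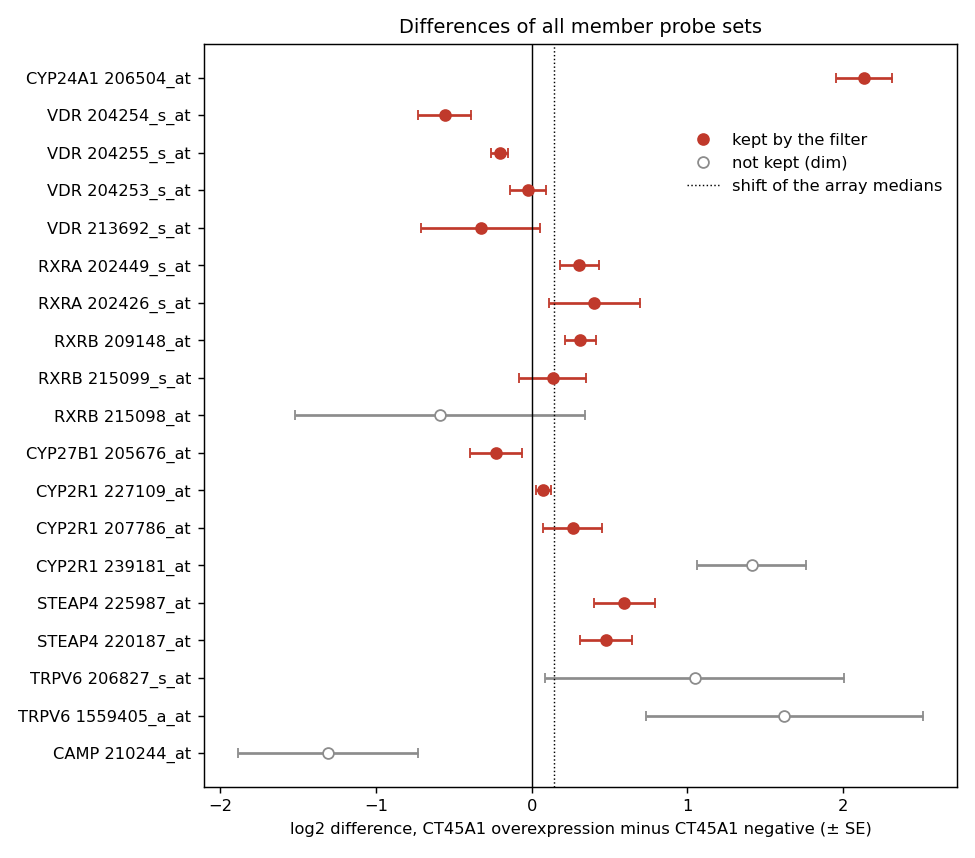
Log2 difference, CT45A1 overexpression minus CT45A1 negative, for all 19 member probe sets, with bars for the SE (n = 3 each). Filled points were kept by the filter, and open points were dim and not tested. The dotted line marks the shift of the array medians, 0.14, while the median difference of all kept probe sets was 0.03. CYP24A1 stands at 2.14 and the brightest VDR probe set at -0.56.

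STEAP4, TRPV6 and CAMP were placed in the set as downstream genes, and whether VDR acts on them in these cells was not tested. STEAP4 is a metalloreductase of the plasma and endosomal membranes, TRPV6 an epithelial calcium channel that the hormone induces in intestine, and CAMP the cathelicidin antimicrobial peptide, a direct VDR target in human monocytes and epithelia. The RefSeq promoter table of GRCh38.p14 had no entry for CYP24A1, VDR or CYP27B1, so their promoters were not searched. It had entries for the other 6 of the 9 members, STEAP4, TRPV6 and CAMP among them, with 10 windows in all. The 250 bases before the annotated start of these 3 genes were searched on both strands for the hexamer AGGTCA and its variants, which are AGTTCA, then GGGTCA and lastly GGTTCA, the half-sites that nuclear receptors bind, and for DR3, a pair of them in tandem with a spacer of 3 bases. They are shown because they are the members placed downstream. The windows are STEAP4 at chr7:88306895-88307144 (minus strand), TRPV6 at chr7:142885746-142885995 (minus strand) and CAMP at chr3:48223245-48223494 (plus strand). They are written 5′ to 3′ with half-sites on either strand in capitals.
STEAP4: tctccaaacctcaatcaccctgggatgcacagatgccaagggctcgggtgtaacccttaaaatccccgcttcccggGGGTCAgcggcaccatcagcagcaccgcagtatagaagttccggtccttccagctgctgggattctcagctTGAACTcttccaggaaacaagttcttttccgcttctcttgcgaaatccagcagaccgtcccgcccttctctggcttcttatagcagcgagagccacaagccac
TRPV6: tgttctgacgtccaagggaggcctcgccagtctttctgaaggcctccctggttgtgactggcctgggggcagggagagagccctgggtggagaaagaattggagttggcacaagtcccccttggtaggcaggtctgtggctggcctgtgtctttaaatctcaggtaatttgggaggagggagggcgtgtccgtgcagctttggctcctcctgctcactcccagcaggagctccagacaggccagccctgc
CAMP: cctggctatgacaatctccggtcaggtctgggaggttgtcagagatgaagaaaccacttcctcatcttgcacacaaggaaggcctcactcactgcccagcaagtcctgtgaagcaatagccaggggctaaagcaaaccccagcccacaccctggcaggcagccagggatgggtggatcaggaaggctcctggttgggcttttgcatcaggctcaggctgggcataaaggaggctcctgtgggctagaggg
STEAP4 held 2 half-sites, GGGTCA starting 174 bases before the annotated start and AGTTCA, on the opposite strand and so read as TGAACT, at 103 bases. TRPV6 and CAMP held none in these windows. Of 35116 promoter windows of the same length in the table, 33.8% held at least 1 of the 4 hexamers, and 0.0655% held a DR3 element. None of the 10 member windows held DR3 and 4 of them held a half-site, with no window for CYP24A1, VDR or CYP27B1. The windows with a half-site belonged to RXRA, CYP2R1 and STEAP4. A match is a description of letters and not of a bound site.

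STEAP4 was higher with CT45A1 at both of its probe sets. The brighter, 225987_at, read 1322, 1675 and 1632 on overexpression arrays, against 981, 849.6 and 1253 on negative arrays. The groups did not overlap, although overexpression replicate 1 and negative replicate 3 lay close together, and the log2 difference was 0.60 (SE 0.20, n = 3 each), or 1.51-fold. At 220187_at the signals were 144, 136 and 150 with CT45A1 and 109, 82.7 and 121 without it, again without overlap, with a log2 difference of 0.48 (SE 0.17). Over 16 alternative settings these differences were 0.45 to 1.17 and 0.32 to 0.88. Settings that change only the filter or the variance model cannot alter them, and groups without overlap keep their sign when an array is left out. TRPV6 was dim at both of its probe sets. The brighter, 206827_s_at, read 49.1, 80.3 and 62.3 with CT45A1 and 8.61, 76.3 and 42.3 without it, and exceeded the array median on 1 array. The other, 1559405_a_at, read between 1.72 and 20.7 on the 6 arrays, with overlap. CAMP was dim on every array, at 24.7, 7.99 and 10.7 with CT45A1 and 46.8, 22.3 and 30.8 without it, with a single array of each group overlapping the other. No fold is given for TRPV6 or CAMP, since both groups lay under the array median on average.

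**Figure D3:**
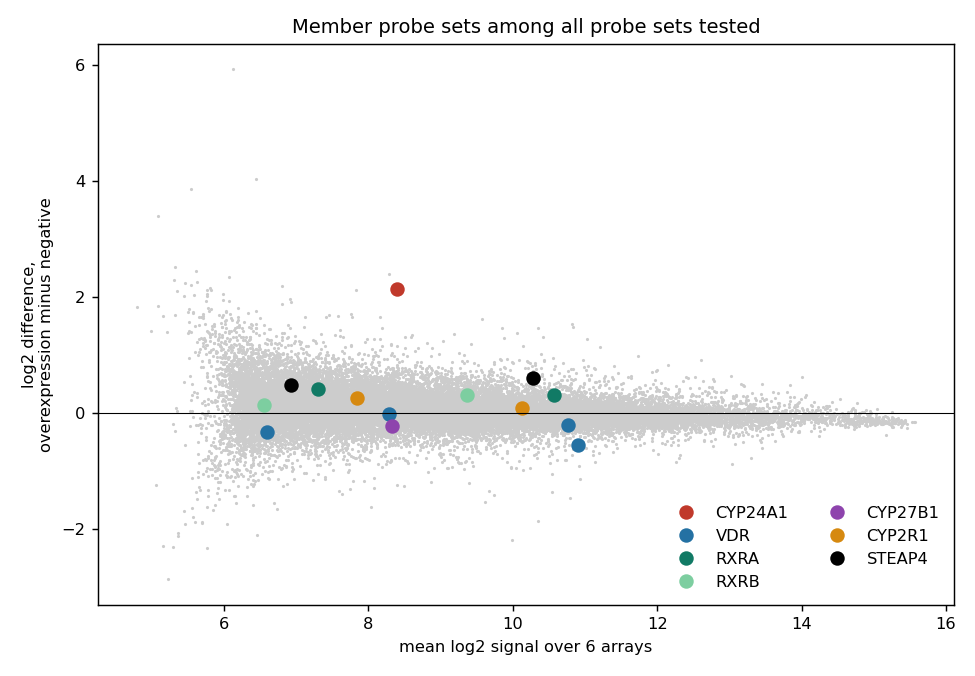
Log2 difference against the mean log2 signal over 6 arrays for all 27618 probe sets tested (grey), with the 14 kept member probe sets in colour by gene. CYP24A1 lies at the upper edge of the probe sets of like brightness, and the 2 brightest VDR probe sets and the brighter STEAP4 probe set lie on opposite sides of 0.

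Of the 19 member probe sets, 14 passed the filter on dim signals, and they cover 7 of the 9 genes. The other 5 were 215098_at of RXRB, 239181_at of CYP2R1, both of TRPV6 and that of CAMP. Of the 14, 2 lay past an adjusted p under 0.05 in limma, CYP24A1 on the higher side and VDR 204254_s_at on the lower, while 3.23% of all 27618 probe sets tested did, 1.89% on the higher side and 1.34% on the lower. The overexpression arrays were all above the negative ones at 5 of the 14 and all below them at 2, against 15.2% and 11.4% of all probe sets tested. Because the members were chosen from this comparison, nothing is read from these counts.

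The genes whose pattern over the 6 arrays was most like that of CYP24A1 were found by the root mean square distance between log2 profiles centred on their own means. The closest was CYP4F2, a P450 that hydroxylates fatty acids and vitamins E and K, at a distance of 0.19 log2 units. Its probe set, 210452_x_at, read 109, 91.9 and 86.2 with CT45A1, against 18.8, 20.03 and 21.8 without it, so its negative arrays were dim. COL1A1, a chain of type I collagen, followed at 0.34, then IFI44L at 0.37, IFIT1 at 0.39 and IFI27 at 0.40, which are 3 genes known as interferon-induced. CYP24A1 and COL1A1 had their highest signal on overexpression replicate 2. CYP4F2 had its highest on replicate 1, as did IFI44L, with 639, 476 and 348, and also IFIT1 and IFI27. Among members, STEAP4 ranked 321st of 11894 genes in likeness and VDR ranked 11528th. The distance is set mostly by the gap between the groups, for which CYP24A1 was chosen, and the ranks carry no test.

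**Figure D4:**
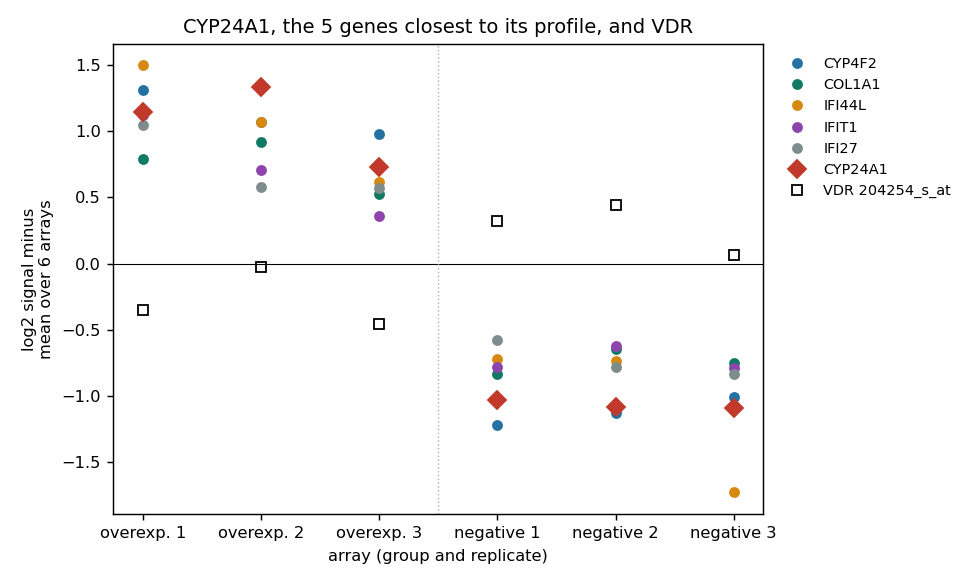
Log2 signal minus the gene's mean over 6 arrays, for CYP24A1 (diamonds), the 5 genes with the closest profiles (circles) and the brightest VDR probe set (open squares), on overexpression arrays at left and negative arrays at right. The 5 genes and CYP24A1 lie above 0 on every overexpression array and below 0 on every negative array, and VDR lies the other way.

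CYP24A1 lies on chromosome 20, and the 5 protein-coding genes on each side of it in the RefSeq table were examined for a shared difference. Of these neighbours 5 could not be tested, since TSHZ2, BCAS1, DOK5, CBLN4 and MC3R were too dim. None of the 5 tested passed in limma, and 2 of them, ZNF217 and FAM210B, had an unadjusted p under 0.05, as did 20.9% of all 11895 genes tested. ZNF217, a zinc finger gene often amplified in breast cancer, differed by 0.17 on the log2 scale (SE 0.07, limma adjusted p = 0.198), at 12.17 ± 0.05 with CT45A1 and 12.01 ± 0.08 without it (SD, n = 3 each). FAM210B differed by -0.19 (SE 0.08, limma adjusted p = 0.198), PFDN4, a prefoldin subunit, by 0.07, ZFP64 by -0.10 and SALL4 by 0.07. The tested neighbours thus lay within 0.19 of 0 on the log2 scale, on both sides of it.

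The wider pathway was followed in 8 lists of 127 genes, of which 77 could be tested. Of these, NR4A2 rose and PDIA3, DHCR7, GADD45A, STEAP1 and ALDH1A3 fell, which is 7.79% of them, against 3.83% of all 11895 genes, 1.94% on the higher side and 1.89% on the lower. The lists' joint median log2 difference was 0.08, against 0.01 over all genes tested. Because the lists were chosen with earlier results of these data known, nothing is read from this share or median. The count changed with single arrays. It was 1 without overexpression replicate 1, without overexpression replicate 2 or without negative replicate 1, and 3 without negative replicate 2. PDIA3 was the gene left in the first 3 of these, and passed beside ALDH1A3 and STEAP1 in the other. The share of all genes that passed was also lower in these settings, at 1.18%, 0.776%, 1.03% and 1.51%. The count was 4 without overexpression replicate 3 and 6 without negative replicate 3, of which 3 were among the 6 named. With the actin ratio in the fit 12 of the 77 passed, 10 higher and 2 lower, against 4.36% of all genes, and of the 6 named NR4A2 and PDIA3 were among them. Over all alternatives PDIA3 passed in 15 of 17, STEAP1 in 11 of 17, NR4A2 in 9 of 16, ALDH1A3 and GADD45A in 8 of 17 each and DHCR7 in 7 of 16.

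Among vitamin D supply, activation and uptake, 2 of the 3 genes tested fell and none rose (list median -0.52). Over all genes tested 3.83% passed, 1.89% on the lower side. Only 3 of the 8 genes listed could be tested, too few to read a direction for the list. PDIA3, a protein disulphide isomerase also described as a membrane binder of the hormone, read 4099, 3605 and 3828 with CT45A1, against 6081, 6788 and 6995 without it. That is a log2 difference of -0.78 (SE 0.08, limma adjusted p = 0.000866) at its brightest probe set, while its other probe sets differed by 0.01 and 0.06. DHCR7, which turns the skin precursor of vitamin D into cholesterol, read 467, 520 and 596 on overexpression arrays, against 699, 751 and 806 on negative arrays. It fell by 0.52 on the log2 scale (SE 0.12, limma adjusted p = 0.041), with -0.07 at its other probe set. The difference was -0.24 once the actin ratio was in the fit (adjusted p = 0.54). When the probe sets of each gene were averaged, neither passed (adjusted p = 0.118 and 0.107).

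Of 40 genes known as vitamin D targets in other human cells, 23 were tested, none rose, 1 fell and 22 did not pass in limma. The 1 of 23 is 4.35%, near the 3.83% of all genes, and the 4 at an unadjusted p under 0.05 are 17.4%, against 20.9% of all genes. This count changed with the actin ratio in the fit, where CD14, IGFBP3, NFKBIA and SERPINB1 passed on the higher side and CST6 on the lower. Of all genes 4.36% passed in that fit. The ratio separated the groups, so that fit cannot tell ratio and group apart. Of the 23, 14 lay above 0 and 9 below, and the median log2 difference was 0.05, against 0.01 over all genes. The gene that fell was GADD45A, a growth arrest and DNA damage gene, at 1914, 2169 and 2028 with CT45A1, against 2571, 3050 and 2513 without it, a log2 difference of -0.41 (SE 0.09, limma adjusted p = 0.0395). It differed by -0.55 with the actin ratio in the fit and then did not pass (adjusted p = 0.0795). Of 15 VDR partners and coregulators tested, none passed in limma, and the 3 with an unadjusted p under 0.05 are near the share of all genes. NRIP1 passed on the higher side with the actin ratio in the fit. The smallest p values were at BAZ1B, a chromatin remodelling subunit, and CREBBP, a histone acetyltransferase, which differed by 0.20 and 0.18 (limma adjusted p = 0.195 and 0.204). Differences in that list ran only from -0.18 to 0.33, with a median of 0.03.

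**Figure D5:**
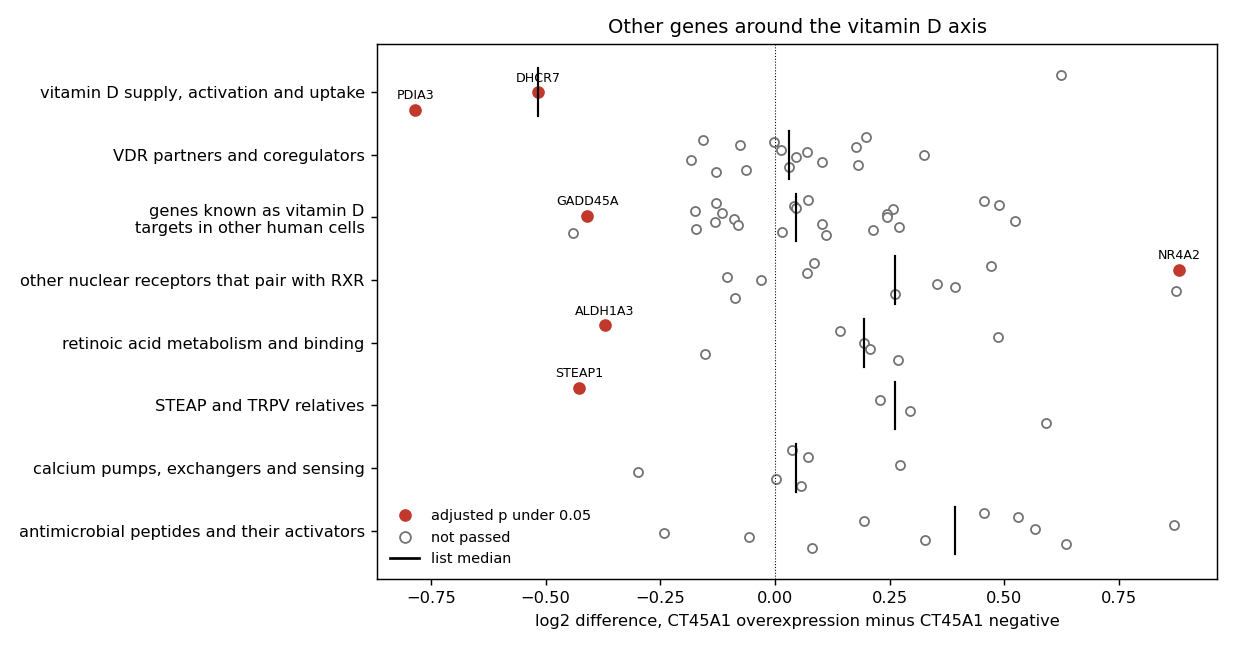
Log2 difference, CT45A1 overexpression minus CT45A1 negative, for each tested gene of the 8 lists, with genes past an adjusted p under 0.05 filled and named and a bar at each list's median. A gene in several lists is drawn in each; values are without the actin ratio in the fit, vitamin D targets and VDR coregulators scatter around 0, and NR4A2 at 0.88 is the filled point above 0.

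The RXR proteins serve further receptors, and 1 of 11 tested rose and none fell (list median 0.26). The 1 of 11 is 9.09%, against 3.83% of all genes. NR4A2, an orphan receptor that can pair with RXR, read 1436, 1658 and 1726 with CT45A1, against 788, 669 and 1246 without it. Its log2 difference was 0.88 (SE 0.19, limma adjusted p = 0.0352), and its other probe sets differed by 0.90 and 0.76. The difference became 1.73 with the actin ratio in the fit (adjusted p = 0.00103). Negative replicate 3 lay well above the other negative arrays. Of 7 genes of retinoic acid metabolism and binding 1 passed, which is 14.3%, against 3.83% of all genes. This was ALDH1A3, which makes retinoic acid. It fell by 0.37 (SE 0.08, limma adjusted p = 0.0351), with signals of 11051 to 13083 with CT45A1 and 14050 to 16548 without it, and differed by -0.10 with the actin ratio as a covariate (adjusted p = 0.656). The other ALDH1A3 probe set, which was dim, differed by -0.17 with overlapping groups. When its probe sets were averaged, ALDH1A3 differed by -0.27 and did not pass (limma adjusted p = 0.221).

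Of 4 relatives of STEAP4 and TRPV6 tested, STEAP1, a membrane protein of the same family, fell and none rose. That is 25% of the 4, against 3.83% of all genes. STEAP1 read 1401, 1500.2 and 1669 with CT45A1, against 2152, 1874 and 2111 without it, a log2 difference of -0.43 (SE 0.09, limma adjusted p = 0.0351), opposite in sign to the 0.60 of STEAP4. STEAP1 differed by -0.22 with the actin ratio as a covariate (adjusted p = 0.449). Of 6 genes for calcium pumps, exchangers and sensing, none passed in limma and 0 had an unadjusted p under 0.05. ATP2B4, a plasma membrane calcium pump, and ORAI1, a store-operated calcium channel, had the smallest p values and differed by 0.27 and -0.30 (limma adjusted p = 0.334 and 0.371). Of 10 antimicrobial peptides and their activators, none passed in limma and 2 had an unadjusted p under 0.05, near the share of all genes. Their median was 0.39 and 8 lay above 0, as did 6146 of all 11895 genes. With the actin ratio in the fit 5 of the 10 passed on the higher side, against 271 of all 11895 genes. These 5 were PI3, LCN2, SLPI, S100A9 and CD14, the last of which is also among the vitamin D targets. The ratio separated the groups, so that fit cannot tell ratio and group apart here either. PI3, the protease inhibitor elafin, differed by 0.87 (SE 0.21, limma adjusted p = 0.0541), with signals of 325, 416 and 421 on overexpression arrays and 208, 157 and 286 on negative arrays. Its other probe set differed by 0.39 (SE 0.29), with overlapping groups. When its probe sets were averaged, PI3 differed by 0.63 (limma adjusted p = 0.193). Among 16 alternatives PI3 passed in 5, including the fit with the actin ratio, where the difference was 1.69 (adjusted p = 0.00763). LCN2, an iron-scavenging lipocalin, differed by 0.19 (SE 0.08, limma adjusted p = 0.206), and by 0.48 with the actin ratio in the fit (adjusted p = 0.0257). CAMP, the antimicrobial member, was too dim to stand beside them.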

How the data were processed

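RNA was measured on 6 arrays of NCI-H292 cells, 3 of each group, grouped by the sample titles. The authors deposited a linear intensity per probe set and array, the MAS5 signal, and the submitters' processing notes name MAS5 and affy. Its 2% trimmed mean came to 500.1 on all arrays.

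All signals were taken to log2. Control probe sets (62) were left out, and probe sets above the array median on at least 3 arrays were kept (27618). Groups were compared with limma (lmFit, eBayes with a variance trend) and Benjamini-Hochberg adjustment, two-sided, at an adjusted p under 0.05. Genes took their brightest kept probe set. For list genes the text names up to 6 that passed, or else the 2 with the smallest p. The members and lists were chosen with earlier results of these data known, so members get no p. Two-sided exact permutation of 3 against 3 arrays cannot give a p below 0.1. On simulated arrays of this comparison, 49.2%, 81.0% and 86.0% of genes changed 1.5-fold, 2-fold and 4-fold were recovered among 11741 genes. The simulation drew independent noise for each probe set, without the shift of the array medians or the actin ratio. These shares therefore need not hold for the real arrays. Symbols came from the platform's annotation, updated through RefSeq of GRCh38.p14. R 4.3.3, limma 3.58.1 and Python 3.11.15 were used.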

Additional observations from a re-analysis of the deposited data

How the results depend on the processing

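The CYP24A1 difference was 1.94 to 2.31 on the log2 scale over the 16 alternatives it entered, and moved by less than 1 SD in each. Settings that change only the filter, the variance model or the replicate block cannot alter a difference of means, and returned 2.14. Leaving out an array could not turn its sign either, since the groups did not overlap. The counts of calls moved more. Against 456 genes, 892 probe sets and 6 listed genes, centring on the array median gave 1815 genes (165 higher, 1650 lower), 2975 probe sets (387 higher, 2588 lower) and 10 listed genes, with the median of all genes at -0.14. Without the variance trend 11 genes, 4 probe sets and 0 listed genes passed. Without a filter on dim probe sets 486 probe sets and 3 listed genes passed, and 446 probe sets passed once those with an _x_at or _s_at suffix were left out. With the actin ratio in the fit 12 listed genes passed, 10 higher and 2 lower, of which 2 were among the 6. With each gene's probe sets averaged 2 listed genes passed. Leaving out 1 array gave 91 to 575 genes, 159 to 1171 probe sets and 1 to 6 listed genes. The cause of these moves was not tested. With the replicate number as a block 536 genes, 1189 probe sets and 8 listed genes passed. The sample titles do not say whether replicate numbers pair the samples. Deviations of same-numbered arrays correlated at -0.011, -0.007 and 0.103, which cannot decide it with 3 arrays a group. Only 6 arrays, and no detection calls, limit what can be said of dim members.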
